A study of Mus musculus with 8 samples.

Results

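Myc sites of Rb-deficient intestinal crypt that lay away from promoters and had no counterpart in control crypt Myc or in any E2f3 list numbered 1988. They made up 6.33% of the 31397 sites listed for Myc in Rb-deficient crypt and 6.76% of the 29400 distal sites of that list. A site was a member when it lay more than 1 kb from every protein-coding start site, with no control crypt Myc site and no E2f3 site within 250 bp. The 4 E2f3 lists (crypt and villus cells, Rb-deficient and control) were all used for the last condition. The members were thus chosen by measured values, namely the positions of sites in 6 of the 8 lists. The rule did not use the scores, the DNA sequence, the 2 villus Myc lists or the genes nearby. DNA sequence may still have entered the site positions through the calling, as described below, so motif shares are not independent of them.

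The study mapped E2f3 and Myc by ChIP-exo-seq, chromatin immunoprecipitation with an exonuclease step that trims DNA up to the crosslinked protein. Crypt and villus cells came from Rb KO mice and from wild type control mice, all on a mixed background of C57BL/6, 129 and FVB/N. Per the labels, Rb was deleted with Ah-cre, an inducible Cre recombinase active in intestine; whether the control mice carried Ah-cre or received the inducer, and how old the mice were, was not found in the labels. Each of the 8 groups was 1 library, and the 8 lists held 284230 sites in all. The control crypt Myc list held 159181 sites, and the lists for Myc in Rb-deficient and control villus held 4119 and 7223. The number of reads behind each list is unknown. With 1 library per group, genotype, library and depth cannot be told apart, and no difference between lists was tested. Site lists hold no RNA, so neither the crypt label nor the loss of Rb could be checked.

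Myc is a transcription factor that binds DNA as a dimer with Max. The dimer prefers the E-box, the 6-base palindrome CACGTG, and also binds variants that differ from it by a base or so. In intestinal crypts, Myc acts downstream of Wnt signalling in proliferating cells, and much of its binding in other cell types is found at promoters and enhancers that are already open. Rb holds back E2F transcription factors, and Myc is among the genes with E2F sites in their promoters.

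Sequences of 8 of the 10 highest-scored members with an E-box come first. In the sequences below, 61 bases of the forward strand around the site (mouse build mm9, reference NCBIM37), capitals mark the E-box CACGTG and its variants on either strand. The variants are CACATG (variant 1), CACGCG (variant 2), CATGCG (variant 3) and CACGAG (variant 4). Each line gives the gene with the nearest protein-coding start site.
Foxk1, chr5:142843597-142843657: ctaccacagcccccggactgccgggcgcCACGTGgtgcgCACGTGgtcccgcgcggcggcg
Sel1l3, chr5:53587853-53587913: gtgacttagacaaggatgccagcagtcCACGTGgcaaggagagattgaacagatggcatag
Adam30, chr3:97991832-97991892: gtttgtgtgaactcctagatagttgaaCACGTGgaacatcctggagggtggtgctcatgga
Ptma, chr1:88421660-88421720: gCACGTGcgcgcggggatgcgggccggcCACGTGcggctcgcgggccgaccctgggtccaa
Slc2a5, chr4:149506864-149506924: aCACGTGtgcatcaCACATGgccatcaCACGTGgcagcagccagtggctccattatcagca
Dmbt1, chr7:138135061-138135121: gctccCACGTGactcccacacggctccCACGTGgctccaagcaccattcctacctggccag
S100a10, chr3:93383421-93383481: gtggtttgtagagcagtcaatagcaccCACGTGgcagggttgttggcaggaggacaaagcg
Dyrk2, chr10:118461743-118461803: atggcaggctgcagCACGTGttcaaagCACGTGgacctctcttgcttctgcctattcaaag
In each of these 8 sequences an E-box lies at the site itself, in the middle of the line. The lines were chosen for holding an E-box within the printed bases. The member near Gm11111 (score 52.26), left out for that reason, had its E-box centre 44.5 bp from the site. Foxk1, Ptma, Slc2a5, Dmbt1 and Dyrk2 hold a further copy nearby.

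The site 33824 bp upstream of Foxk1, which encodes a forkhead transcription factor, had the highest score of all members (211.7, in the authors' units, whose meaning is not stated). The site in an intron of Sel1l3 scored 92.85 and that downstream of Adam30, of a family of membrane proteases, 65.21. Ptma encodes prothymosin alpha, a long-known target of Myc, and its site lay 1621 bp upstream with a score of 53.21. Slc2a5, the fructose transporter of enterocytes, had its site in an intron 13502 bp from the start (50.62). The site 40499 bp upstream of Dmbt1, a secreted mucosal glycoprotein, lay in an intron of Fgfr2 (47.27). S100a10 encodes a partner of annexin A2 and its site scored 44.91. The Dyrk2 site (38.66) lay 155814 bp upstream of the start of that kinase gene, outside protein-coding genes. Scores rank sites within a list.

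Among the 10 highest-scored members, 4 had the E-box within 50 bp and 6 did not. Of the 5 highest without it, 4 held CACATG within 50 bp (those nearest to B4galt6, Zfp217, Dclre1b and Klf13, scores 95.25, 72.51, 72.34 and 60) and the other, near Osbpl10 (81.38), held CACGCG. The site of rank 10, in an intron of the monocarboxylate transporter gene Slc16a7 (53.73), held CACGAG. Zfp217 encodes a zinc finger protein and Klf13 a Krüppel-like factor, and their sites lay 50408 and 17698 bp upstream. Both sequences are shown because their variant lies to one side of the site, not on it.
Zfp217, chr2:170018556-170018616: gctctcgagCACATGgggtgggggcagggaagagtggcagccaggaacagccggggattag
Klf13, chr7:71101469-71101529: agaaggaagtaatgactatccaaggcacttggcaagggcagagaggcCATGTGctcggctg

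The E-box was common at the members and rare beside them. CACGTG lay within 50 bp of 600 of the 1988 sites, 30.2% (95% interval 28.2% to 32.3%). Windows placed 2 kb to the left and right, called flanks from here on, had it in 1.26%, which made the ratio 24. With the control crypt Myc list cut to its 31397 highest-scored sites, the length of the Rb-deficient list, the rule kept 6751 sites, of which 13.2% held the E-box, and the ratio was 9.75. The other distal sites of the same list had far fewer. The share was 5.05% of the 7195 sites with a control crypt Myc site and no E2f3 site (1.26% in their flanks), and 1.95% of the 19838 sites with both (0.988% in their flanks). Distal sites with E2f3 and no control crypt Myc site, 379 in all, lay between with 12.4%. Distal sites listed for control crypt Myc, with neither an Rb-deficient crypt Myc site nor an E2f3 site, numbered 112691 and had the E-box in 1.25%, against 1.04% in their flanks.

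**Figure D1:**
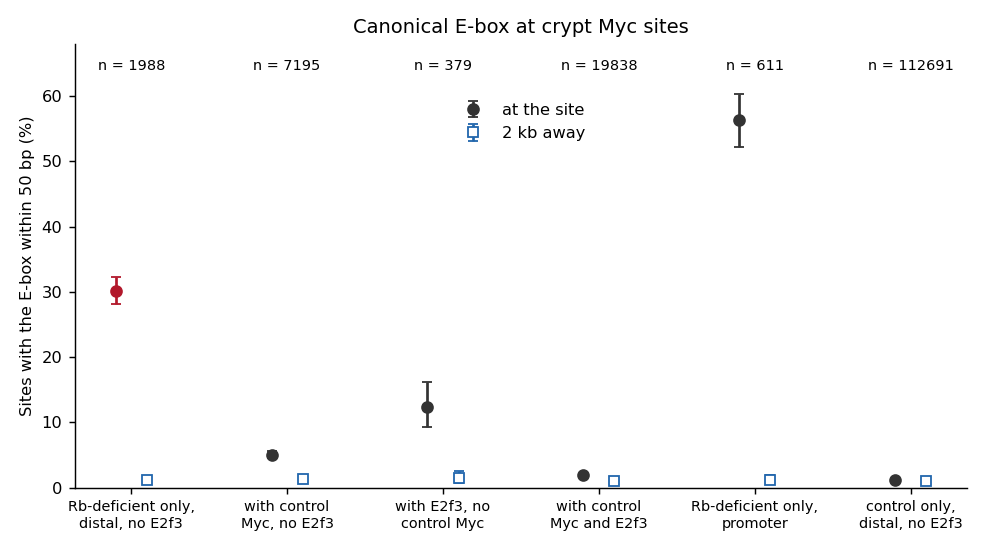
Share of sites with CACGTG within 50 bp (y axis, percent) for 6 sets of crypt Myc sites, with exact 95% intervals that cover counting error only. Filled circles are the sites (red for the 1988 distal Rb-deficient-only sites), open squares are windows 2 kb away; the first set reaches 30.2% and the promoter counterpart 56.3%, while the control-only set stays at 1.25%.

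Promoter sites of Rb-deficient crypt that met the same conditions on the other lists had a still higher share. Of 611 such sites within 1 kb of a start site, 344 or 56.3% (52.3% to 60.3%) held the E-box. All 1852 promoter sites of the list together had it in 31.1%.

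The E-boxes sat on the sites. Of the 600 members with an E-box within 50 bp, 572 or 95.3% lay exactly at its centre, which is 28.8% of all members. A further E-box, or an E-box away from the site, was infrequent: 26 members held 2 or more, and 1.41% had one whose centre lay more than 1 bp away and none at the site. The density of E-boxes was 143.9 per kb within 1 bp and 0.377 per kb at 10 to 20 bp, against 0.130 per kb in the flanks. GEM, the program named in the deposited files, uses sequence motifs to place its events, so the exact position and the share within 50 bp are tied to the calling. Within 250 bp, where placement matters less, 34.9% of members held an E-box and 5.99% of their flanks. In that window the other distal sites of the list also exceeded their flanks. The shares were 11.4% against 5.58% with control crypt Myc and no E2f3, and 19.5% against 6.20% with E2f3 and no control crypt Myc. They were 8.15% against 5.17% with both, and 6.87% against 5.18% in the control-only distal set. In the control-only distal set, 37 sites lay on an E-box centre, 2.62% of those with an E-box within 50 bp.

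**Figure D2:**
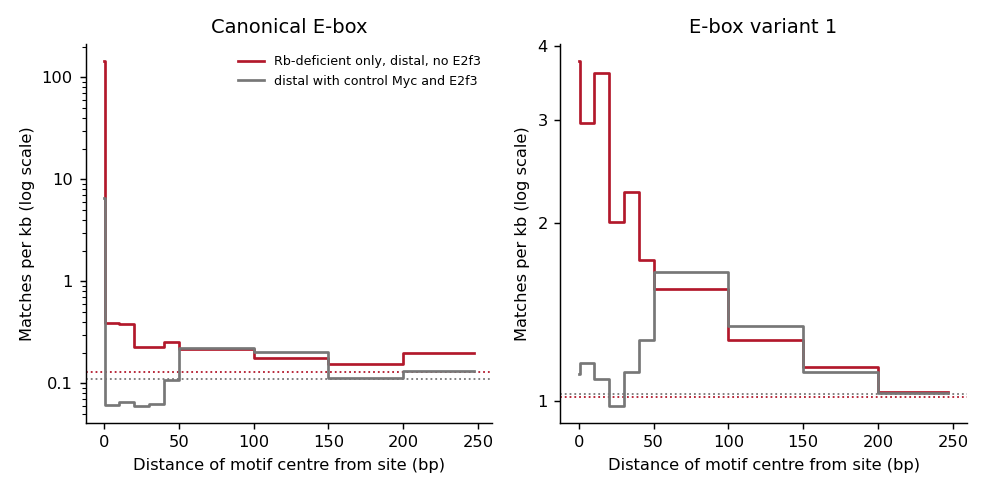
Density of CACGTG (left) and of CACATG, labelled variant 1 (right), in matches per kb on a log scale, against the distance of the motif's centre from the site in bp. Red is the 1988 distal Rb-deficient-only sites, grey the 19838 distal sites with control crypt Myc and E2f3, and dotted lines the flanks; CACGTG stands at the site itself, while CACATG is spread over the first 50 bp of the red set (3.60 per kb at 10 to 20 bp, 1.03 per kb beyond 200 bp).

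The variant CACATG was also more frequent at the members, and it was spread around the site. It lay within 50 bp of 389 members, 19.6% (17.8% to 21.4%), against 8.60% in the flanks. Among the 1388 members without CACGTG the share was 23.6% (21.3% to 25.9%), with 9.04% in the flanks, and among the 600 with CACGTG it was 10.3%, with 7.58% in the flanks. Its density was 3.77 per kb within 1 bp, 3.60 per kb at 10 to 20 bp, 1.74 per kb at 40 to 50 bp and 1.03 per kb beyond 200 bp, where the flanks had 1.01. The distal sites with control crypt Myc and E2f3 held CACATG in 8.89%, beside 8.50% in their flanks, and those with control crypt Myc alone in 10.8%, beside 8.42%. Within 100 bp the sets were closer. The share was 29.5% at members (16.4% in flanks) and 23.6% with control crypt Myc alone (16.1%). It was 21.1% with control crypt Myc and E2f3 (16.4%) and 23.5% in the control-only distal set (16.1%).

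At the promoter counterpart another variant was the more frequent. CACATG lay within 50 bp of 7.36% of the 611 promoter sites, against 6.96% in their flanks, and CACGCG lay within 50 bp of 21.3%, against 0.491%. At the distal members CACGCG was found in 2.97%, beside 0.478% in the flanks. Base composition differs between these sets, since the median GC content within 50 bp of a site was 48.5% at the members and 62.4% at the promoter counterpart. Among sites of 45 to 55% GC, CACATG was found at 20.8% (18.2% to 23.7%) of 854 members and 8.70% (4.25% to 15.4%) of 115 promoter sites. At 55 to 65% GC it was found at 24.5% (20.1% to 29.3%) of 359 members and 9.64% (5.91% to 14.7%) of 197 promoter sites. CACGCG was found at 0.289% (0.0350% to 1.04%) of members and 5.13% (0.627% to 17.3%) of promoter sites below 45% GC, and at 2.69% (1.71% to 4.01%) and 5.22% (1.94% to 11%) at 45 to 55%. At 55 to 65% it was found at 3.62% (1.94% to 6.11%) of members and 16.2% (11.4% to 22.2%) of promoter sites, and above 65% GC at 25.3% (16.4% to 36%) of 83 members and 34.6% (28.8% to 40.7%) of 260 promoter sites. Below 45% GC, CACATG was found at 16.9% (14.2% to 19.9%) of 692 members and 10.3% (2.87% to 24.2%) of 39 promoter sites, and above 65% at 7.23% (2.70% to 15.1%) and 4.62% (2.41% to 7.92%). For CACATG the counting intervals of members and promoter sites were thus apart in both middle ranges and overlapped in the outer ones. The intervals for CACGCG were apart at 55 to 65% and overlapped in the other 3 ranges. Differences between the sets were not tested.

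Further E-box-like words came out when all 6-base words around the members were counted, so they were chosen after the data were seen. CATGCG lay within 50 bp of 3.37% of members and 0.704% of flanks, and CACGAG of 3.67% and 1.11%. Taking CACGTG and these 4 variants together, 1053 members or 53% (50.7% to 55.2%) held at least 1, against 11.6% of their flanks. The other distal sites had 17.5% with control crypt Myc alone, 30.9% with E2f3 alone and 12.4% with control crypt Myc and E2f3. The remaining 935 members held none of the 5 words within 50 bp. The strict E2F motif was found at 18 members, 0.905% (0.537% to 1.43%), beside 0.528% in the flanks.

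**Figure D3:**
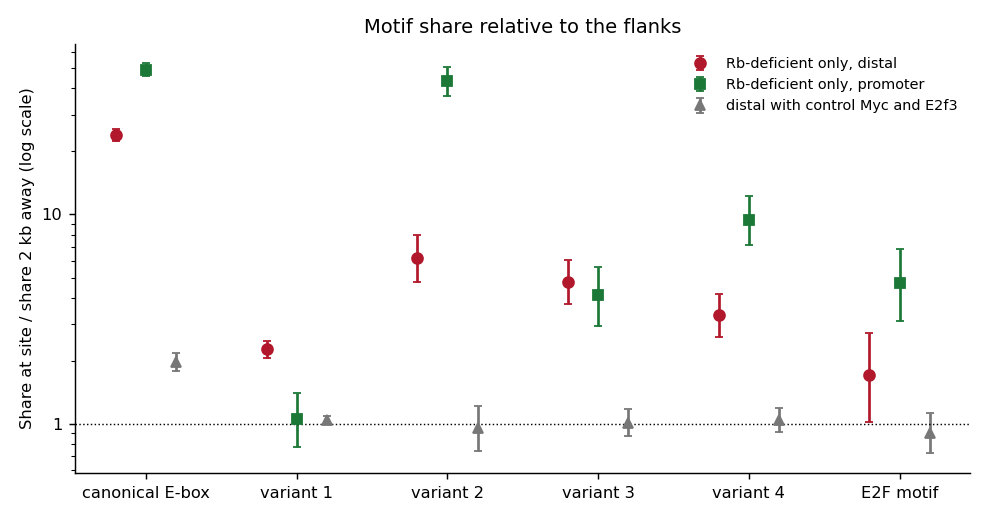
Share of sites with a motif within 50 bp divided by the share in windows 2 kb away (log scale), for CACGTG (canonical E-box), the variants CACATG (1), CACGCG (2), CATGCG (3) and CACGAG (4), and the E2F motif. Bars carry over the exact 95% interval of the share at the site only. Red circles (distal members) lie above 1 for all 4 variants. Variants 3 and 4 were picked as words more frequent at these members than in these flanks, so their ratios there were high by choice. Green squares (promoter counterpart) are near 1 for variant 1, and grey triangles (distal sites with control crypt Myc and E2f3) are near 1 for all 4.

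The bases next to the E-box were mostly C or G, both at distal members and at promoters. Reading outward-in on each strand, the base before CACGTG was C in 48.3%, G in 30.7%, A in 15.3% and T in 5.68% of the 1144 bases next to the 572 E-boxes at members. At the 550 E-boxes at promoter sites of the list C, G, A and T made up 47.9%, 36.3%, 10.7% and 5.09%. The 2 bases directly before CACGTG were CG in 3.5% at members, 13.2% at promoters and 1.57% over all copies on the reference chromosomes. All 262836 copies of CACGTG on the reference chromosomes had C, G, A and T in 28.4%, 21.1%, 27.9% and 22.7%. Of the 253080 copies more than 1 kb from a coding start site, 626 or 0.247% lay within 50 bp of a member.

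Scores of the members were low within their list, whose median was 9.67. Theirs was 5.17 (quartiles 3.37 and 9.19), near the 5.55 of the distal sites with control crypt Myc alone and below the 13.11 of the distal sites with control crypt Myc and E2f3. Split by score into 5 classes of like size, the members had the E-box in 19.0%, 32.2%, 30.4%, 34.8% and 34.7% from lowest to highest. The lowest class, with scores from 2.01 to 3.09, had an interval (15.3% to 23.2%) that lay below those of the others. CACATG was found in 16.8%, 14.2%, 18.7%, 20.1% and 28.1% of the same classes. Distal sites with control crypt Myc and E2f3 in the same score ranges had the E-box in 4.16%, 2.24%, 2.43%, 2.17% and 1.62%, below the members in each class. Those with E2f3 and no control crypt Myc site had it in 17.1%, 7.32%, 18.3%, 11.3% and 11.5%. In the lowest class (35 sites, 6.56% to 33.6%) and the middle one (60 sites, 9.52% to 30.4%) their intervals overlapped those of the members. The members' interval in the middle class was 26.0% to 35.2%. The 3 lowest-scored members (2.01 each) were nearest to Rpsa-ps10, C1qtnf7 and Gm14501, and that in an intron of C1qtnf7 lay on an E-box.

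The members lay nearer to coding start sites than the distal sites with a control crypt Myc site. Their median distance to a coding start site was 24724 bp (quartiles 9701 and 67808), against 38470 bp for distal sites with control crypt Myc alone and 44752 bp for those with control crypt Myc and E2f3. The 379 distal sites with E2f3 and no control crypt Myc site had a median close to theirs, 25911 bp. Sites 1 to 5 kb from a start made up 14.8% of the members, 9.70% of the sites with control crypt Myc alone and 9.82% of those with both. The E-box share decreased with distance. It was 41.7% at 1 to 5 kb, 32.3% at 5 to 10 kb, 32.4% at 10 to 50 kb, 27.5% at 50 to 100 kb and 17.0% (13.4% to 21.2%) beyond 100 kb. GC content decreased as well, with a median of 51.5% at 1 to 5 kb and 42.6% beyond 100 kb; its part in the E-box share was not tested. At 1 to 5 kb, sites with control crypt Myc alone had 7.74%, those with control crypt Myc and E2f3 2.57% and those with E2f3 alone 20.3%.

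**Figure D4:**
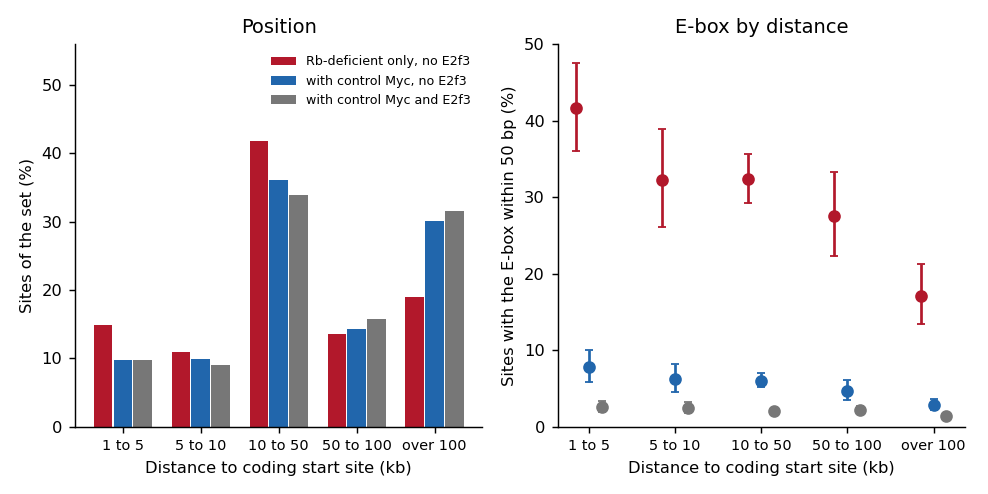
Left, percent of the sites of each distal set by distance to the nearest coding start site in kb. Right, percent of sites with CACGTG within 50 bp by the same distance, with exact 95% intervals; the members (red) reach 41.7% at 1 to 5 kb and 17.0% beyond 100 kb, above the sets with control crypt Myc alone (blue) and with control crypt Myc and E2f3 (grey) in each bin.

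Members lay inside genes about as often as distal sites with control crypt Myc. Of the members, 47.8% lay inside a protein-coding gene, 44.0% in introns and 3.82% in exons (1.86% in coding exons), and 52.2% lay outside protein-coding genes. The share inside genes was 47.7% for sites with control crypt Myc alone and 46.9% for those with both, and it was 39.1% for sites with E2f3 and no control crypt Myc site. Near other annotated starts, 88 members (4.43%) lay within 1 kb of the start of a non-coding transcript or gene, among them 32 near non-coding transcripts of coding genes and 19 near lincRNAs. The sequence was mostly unique: the central 36 bases occurred more than once in the reference at 7 members. GC content had a median of 48.5%, against 45.5% in the flanks, and CpG dinucleotides averaged 2.02 within 50 bp of the sites and 1.16 in the left flanks.

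Hardly any member recurred in villus. A Myc site of Rb-deficient villus lay within 250 bp of 1 member, 0.0503% (0.00127% to 0.280%), and a Myc site of control villus near 6, 0.302% (0.111% to 0.656%). Distal sites with control crypt Myc and E2f3 had partners in 17.7% for Rb-deficient villus and 30.8% for control villus, those with E2f3 alone in 12.7% and 14.8%, and those with control crypt Myc alone in 0.890% and 2.00%. The control-only distal set had them in 0.0355% and 0.115%, and the promoter counterpart in 0% for both. Requiring no E2f3 site thus went with few villus partners even where control crypt Myc was present, and the low shares were not particular to the members. The E2f3 lists of the rule include those of villus. The member with a Rb-deficient villus partner, 4 bp away, lay in an intron of Thra, the thyroid hormone receptor alpha gene, at position 98611907 of chromosome 11, on an E-box (score 8.01). The 5 highest-scored of the 6 with a control villus partner were nearest to Dcdc2c, Pum2, Prkar1b, Osr1 and Cldn8, at distances of 4 to 43 bp from the villus site. None of these 5 had CACGTG within 50 bp.

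The rule itself keeps control crypt Myc and E2f3 sites more than 250 bp away, so distances to them are given as a description. The nearest control crypt Myc site lay at a median of 5060 bp and the nearest E2f3 site at 13834 bp. A control crypt Myc site lay 250 to 500 bp away for 44 members and 500 to 1000 bp away for 156. Sites on both sides of each edge of the rule were as follows. Mbd3 and Shmt1 had members 1009 and 1012 bp from a start, while sites 973 and 969 bp from Slc7a5 and Mt1 were left out. Members near Gcap14 and Gltscr1 had a control crypt Myc site 280 and 297 bp away, while sites near Slit3 and Auts2, with one at 245 and 244 bp, were left out. The Dyrk2 member had an E2f3 site 254 bp away and the one near Trim8 266 bp, while sites near Myo1g and Ccne1, with one at 250 and 247 bp, were left out. The Myo1g site had a score of 112.8, which among the members would have ranked below Foxk1 alone.

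By nearest start site at most 100 kb away, the members fell to 1427 of 22232 protein-coding genes, 6.42%, and those with CACGTG to 505 genes, 2.27%. The shares over all genes were 18% for distal sites with control crypt Myc alone and 36% for those with control crypt Myc and E2f3. Genes with wide spaces around them gather more sites of any kind, and this was not corrected for. For each list, the number of genes with a member is given first, then the numbers with a site of these other sets.

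Wnt pathway and stem cell genes had 8 of 29 with a member: Smoc2, Rnf43, Znrf3, Ephb3, Hopx, Lrig1, Tcf7l2 and Ctnnb1. In the same list, 13 genes had a distal site with control crypt Myc alone and 18 one with control crypt Myc and E2f3. Rnf43 and Znrf3 encode membrane ubiquitin ligases that remove Wnt receptors, Tcf7l2 the main Wnt-driven DNA-binding factor of the intestine, and Ctnnb1 its partner beta-catenin. The site 38231 bp downstream of the start of Ephb3, a Wnt-dependent receptor that positions cells along the crypt, scored 16.24 and lay on an E-box that runs into CACGCG on the other strand. The Rnf43 site (18.29, intron) held none of the 5 words, and the Tcf7l2 site (10.65, intron) held CACATG.

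Intestinal transcription factors had 8 of 29: Klf4, Atoh1, Isx, Elf3, Ehf, Nr5a2, Ppara and Prdm1. The counts were 10 with control crypt Myc alone and 15 with control crypt Myc and E2f3. Isx encodes an intestine-specific homeobox protein, and its site scored 23.52, 29618 bp downstream of the start, on an E-box. The Ppara site (10.44) held CACATG and CATGCG, which overlap there. Klf4 marks differentiating cells, and its site (6.68) held none of the words.

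Signalling genes of the crypt-villus axis had 9 of 30: Notch2, Dll4, Bmp2, Bmp4, Smad7, Id2, Wwtr1, Tgfbr2 and Fzd7. The counts were 7 with control crypt Myc alone and 17 with control crypt Myc and E2f3. Fzd7, a Wnt receptor of intestinal stem cells, had 2 members among those named, both on E-boxes. The upstream one lay 32412 bp from the start (11.78), and the other in the coding exon, 1684 bp from the start (9.84). Bmp2, a ligand that acts against stem cell renewal, had a site 53337 bp upstream (19.65) with CACATG and no CACGTG. Isx, Ephb3, the upstream Fzd7 site and Bmp2 are shown as members of these lists with and without the E-box.
Isx, chr8:77427027-77427087: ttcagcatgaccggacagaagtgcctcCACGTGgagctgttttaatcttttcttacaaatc
Ephb3, chr16:21249369-21249429: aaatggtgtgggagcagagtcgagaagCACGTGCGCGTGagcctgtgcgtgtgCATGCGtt
Fzd7, chr1:59506549-59506609: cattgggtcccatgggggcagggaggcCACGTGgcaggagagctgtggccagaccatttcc
Bmp2, chr2:133324528-133324588: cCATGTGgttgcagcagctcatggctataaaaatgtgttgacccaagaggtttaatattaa

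Differentiated and structural genes were also represented. Villus enterocyte genes had 5 of 25, namely Vil1 (villin), Sis (sucrase-isomaltase), Anpep (aminopeptidase N), Slc5a1 (the sodium-glucose transporter) and Slc2a5, and 4 of the 5 had a member with CACGTG. The counts were 6 with control crypt Myc alone and 9 with control crypt Myc and E2f3. The Slc5a1 site, 27248 bp upstream, scored 33.86 and lay on an E-box, and the Vil1 site (23.37, intron) held CACATG. Junction, adhesion and cytoskeleton genes had 6 of 24, among them the epithelial keratins Krt8 and Krt18, occludin (Ocln) and 2 claudins, with 5 for control crypt Myc alone and 12 for control crypt Myc and E2f3. The Krt18 site (37.58) lay 9977 bp upstream and held CACATG.

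**Figure D5:**
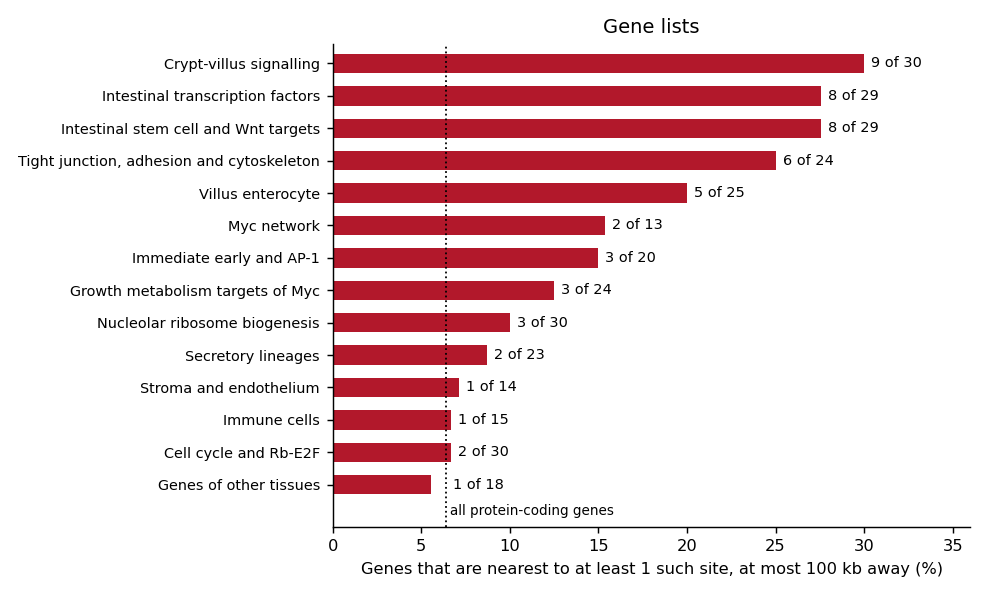
Percent of the genes of each of 14 lists that are the nearest coding start, at most 100 kb away, of at least 1 of the 1988 sites; the counts stand at the bars and the dotted line marks 6.42%, the share over all 22232 genes. Crypt-villus signalling, intestinal transcription factors and Wnt targets stand highest (9 of 30, 8 of 29 and 8 of 29), and cell cycle and immune genes are near the line.

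Growth genes, whose promoters Myc is known to bind, had members at 10% to 15.4% of their lists, a difference from the lists above that was not tested. Ribosome biogenesis genes had 3 of 30 (Nhp2, Gnl3 and Wdr43), with 2 for control crypt Myc alone and 8 for control crypt Myc and E2f3. Growth metabolism genes had 3 of 24 (Eno1, Shmt1 and Ccnd2), with 5 and 9 for the same 2 sets, and the Myc network 2 of 13, with 4 and 8. Gnl3, which encodes nucleostemin, had its member on an E-box 1035 bp from the start, close to the edge of the rule. The 2 genes of the Myc network were Mxi1, a Max partner that opposes Myc, and Mlxipl, whose protein ChREBP binds E-box pairs. Mlxipl had 2 members in its gene body, 1394 and 1952 bp from the start, and the second lay on CACGTG. Cell cycle genes had 2 of 30 (Rbl2 and Ccne1), with 12 for control crypt Myc alone and 14 for control crypt Myc and E2f3. Immediate early genes had 3 of 20 (Fosb, Egr2 and Zfp36), with 3 and 10, and secretory lineage genes 2 of 23, with 1 and 13. Immune genes had 1 of 15, with 3 and 4, stromal genes 1 of 14, with 6 and 7, and other-tissue genes 1 of 18, with 2 and 6. The member shares of the secretory, cell cycle, immune, stromal and other-tissue lists, 5.56% to 8.70%, were near the 6.42% of all genes.

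Genes near members had a Myc promoter site in the same library more often than genes at large. Of the 1427 genes, 190 or 13.3% (11.6% to 15.2%) had one, against 8.28% of all genes, 9.81% of the 4006 genes near distal sites with control crypt Myc alone and 9.63% of the 8009 near those with both. For the 505 genes near members with CACGTG the share was 17.0% (13.9% to 20.6%). An E2f3 promoter site in Rb-deficient crypt was found at 28.7% (26.4% to 31.2%) of the 1427 genes, against 20.2% of all genes, 23.7% near sites with control crypt Myc alone and 22.3% near those with both. A control crypt Myc promoter site was found at 23.5% (21.3% to 25.8%), against 17.2%, 22.0% and 20.4%. So genes whose distal members lacked E2f3 still had E2f3 at their promoters more often than genes at large.

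The members were scattered over 1713 nearest genes in all, 1489 of them with 1 member. Casz1, a zinc finger transcription factor gene, had 6, with scores from 2.12 to 19.62, of which 4 had CACGTG within 50 bp. Galnt7, a transferase of mucin-type glycosylation, Lrig3, Lrrc8d and 1700011I03Rik had 5 each. Within 1 kb of each other, 80 members formed 40 pairs.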

How the data were processed

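Bowtie2 2.2.1, MACS2 2.0.10 and the build mm9 are named in the submitters' processing notes. The deposited files are named as GEM events overlapping MACS2 peaks, merged, with duplicates kept; sources used here do not say what was merged, which thresholds applied or how deep the libraries were. Each deposited site has a score by the authors (unit score, no stated normalization), used here to rank sites within a list. Positions were deposited counting from 0 and are given plus 1. Genes came from GENCODE M1 (45974 coding start positions, 22232 genes) and sequence from NCBIM37; 145 sites of the Rb-deficient crypt Myc list lay outside its chromosomes and were not assessed. Motifs were counted on both strands as exact words, whole within 50 bp; the strict E2F motif was TTNNCGC with C or G at each N. The motif count was tested on simulated sequences. Intervals are exact 95% Clopper-Pearson intervals over sites and cover counting error only. No p-value is given, since each group had 1 library. The members, the 14 gene lists and the motifs were chosen with earlier results of these data known. Named members were the 10 highest by score, the 10 highest with the E-box, the 5 highest without it, the 5 highest near each villus list, the 3 lowest, the 2 on each side of each threshold, the 3 highest per gene list and the 5 genes with most members. Sequences are those of the 10 highest with the E-box, apart from the one near Gm11111, whose E-box lies outside the printed bases, and one on a chromosome not printed here, and 6 others. Python 3.11.15, numpy 2.4.6, pandas 2.3.3, scipy 1.17.1 and matplotlib 3.10.9 were used.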

Additional observations from a re-analysis of the deposited data

How the results depend on the processing

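Set against only as many top-scored control crypt Myc sites as the Rb-deficient list holds, the rule kept 6751 sites, with CACGTG in 13.2% (ratio to the flanks 9.75), Rb-deficient and control villus partners in 0.415% and 0.889%, a median distance of 32435 bp and a GC content of 45.5%. Above the list's median score, 461 members remained, with CACGTG in 34.7%, a ratio of 40, a Rb-deficient villus share of 0%, a distance of 21127 bp and a GC content of 51.5%. In the top 10% by score there were 36, with CACGTG in 36.1%, 0% near either villus list, 44.4% in gene bodies, a distance of 13472 bp and a GC content of 51.5%; no flank window held CACGTG, so this gives no ratio. More than 5 kb from a start site, the ratio was 27.3, the Rb-deficient villus share 0%, the share in gene bodies 44.9% and the distance 33298 bp. Sharing within 100 bp gave Rb-deficient and control villus shares of 0.283% and 0.756%, and sharing within 1000 bp a ratio of 22.3. Villus sites up to 1000 bp away gave 0.654% for Rb-deficient and 1.31% for control villus. The ratio was 13.1 with a motif window of 100 bp and 5.83 with 250 bp, where the share was 34.9%. Counting variants 1 and 2 beside CACGTG gave 48.6% and a ratio of 4.86. Settings chosen after seeing the data gave 6.99% for variants 3 or 4 and 1.41% for CACGTG whose centre lay more than 1 bp from the site. Some of these values rest on few sites, and their own intervals covered the values for all members. For the 36 sites the intervals were 20.8% to 53.8% for CACGTG, 27.9% to 61.9% for gene bodies and 0% to 9.74% for either villus list. For the 461 sites the interval of the Rb-deficient villus share was 0% to 0.797%. The cause of these differences was not tested. The other 37 of 73 alternative values stayed within the counting interval of the value reported, or for counts within 1.5 times. No paired analysis was possible because each group had 1 library; for the same reason no library could be left out. Depth is unknown for every list, and whether sites missing from control crypt lay just below its threshold was not tested.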

Other observations

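Other words were compared with the flanks in the same way. The KLF motif, bound by Krüppel-like factors, lay within 50 bp of 2.67% of members (2.00% to 3.47%) and 1.31% of flanks, a ratio of 2.04. At the promoter counterpart it was found at 4.91% of sites and 1.47% of flanks, a ratio of 3.33, and at distal sites with control crypt Myc and E2f3 at 0.660%. The HNF4 word, of a nuclear receptor of enterocytes, was found at 13 members, 0.654% (0.349% to 1.12%), and in 5 flank windows, 0.126%. Its share also exceeded the flanks at the promoter counterpart (4 sites, 0.655% against 0.245%) and with control crypt Myc alone (0.264% against 0.146%). With control crypt Myc and E2f3 it was 0.146% against 0.106%. AP-1 was found at 2.67% of members and 1.79% of flanks, TCF/LEF at 2.31% and 1.69%, GATA at 6.69% and 5.58%, and CDX at 3.42% and 3.60%.

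Members were sparse on the X chromosome, with 32 sites or 0.197 per Mb, against 0.817 per Mb over the autosomes, where single chromosomes had 0.592 to 1.05. Distal sites with control crypt Myc alone had 1.44 per Mb on the X and 2.91 over the autosomes. The labels do not give the sexes of the mice.

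At distal sites with control crypt Myc and E2f3, CACATG had a density of 1.09 per kb at 10 to 20 bp from the site and 1.02 per kb in the flanks, and reached 1.65 per kb at 50 to 100 bp and 1.34 per kb at 100 to 150 bp. At the members it was denser near the site, with 3.60 per kb at 10 to 20 bp and 1.55 per kb at 50 to 100 bp.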
